A study of Mus musculus with 8 samples.

Results

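Antibody transcripts in the infarcts of aged mice were described through the 10 constant region genes that set antibody class and light chain type: Ighm, Ighd, Igha, Ighg1, Ighg2b, Ighg2c and Ighg3 for the heavy chain and Igkc, Iglc1 and Iglc2 for the light chain. They were matched by symbol to the Ensembl gene identifiers of the deposited count files, which list 46078 genes, and all 10 were found and passed the filter on low counts. The annotation holds 13 constant genes in all, and the other 3, Ighe, Iglc3 and Iglc4, are given beside them. The libraries came from wild-type male C57BL/6J mice, 18 months of age per the labels, in which stroke was induced by occlusion of the distal middle cerebral artery followed by hypoxia. All 8 mice had this stroke, and infarcts were collected at 7 weeks. The 4 vehicle animals received sterile PBS, and the other 4 received HPBCD (2-hydroxypropyl-β-cyclodextrin, a sugar ring that binds cholesterol) at 4 g/kg. Both were injected subcutaneously 3 times per week for 6 weeks, starting 1 week after stroke. Dissection was manual and guided by appearance, so the amount of neighbouring tissue can vary, and there was no group without stroke among these libraries. Each library is named by group and animal number.

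An antibody is built from paired heavy and light chains, and the constant region of the heavy chain gives its class. Naive B lymphocytes make IgM and IgD together by alternative splicing of the same primary transcript. After activation they can switch to IgG, IgA or IgE by class switch recombination, which joins the same variable region to another constant gene by deleting the DNA between. T cell help and cytokines can direct switching. Interleukin 4 favours IgG1 and IgE, interferon gamma favours IgG2c, and transforming growth factor beta favours IgA and IgG2b. Plasma cells secrete the product in bulk, and J chain (Jchain) joins IgM into pentamers and IgA into dimers. C57BL/6 mice carry Ighg2c where some other strains carry Ighg2a. B lymphocytes are known to gather in the infarct in the weeks after stroke in mice.

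The IgG subclass genes resemble each other, so the sequence by which reads are told apart matters for every subclass value below. Over the coding sequence of the secreted forms, Ighg2b and Ighg2c shared 85.7% of aligned bases, and the other pairs among the 4 IgG genes shared 74.1% to 75.9%. The hinge exon differs most visibly in length. It has 39 bases in Ighg1, 48 in Ighg3, 63 in Ighg2c and 66 in Ighg2b, and is printed here in capitals with 15 coding bases of the exon on either side in lower case, from the GENCODE transcripts of GRCm38, minus strand. The hinge exons lie at chr12:113360529-113360576 for Ighg3, chr12:113329844-113329882 for Ighg1, chr12:113307261-113307326 for Ighg2b and chr12:113288263-113288325 for Ighg2c.
Ighg3: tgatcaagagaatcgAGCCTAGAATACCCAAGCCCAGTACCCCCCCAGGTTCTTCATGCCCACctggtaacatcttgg
Ighg1: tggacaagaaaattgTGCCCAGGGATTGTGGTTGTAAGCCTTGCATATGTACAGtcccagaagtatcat
Ighg2b: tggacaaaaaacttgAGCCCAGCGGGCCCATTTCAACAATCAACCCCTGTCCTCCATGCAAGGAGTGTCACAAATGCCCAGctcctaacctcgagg
Ighg2c: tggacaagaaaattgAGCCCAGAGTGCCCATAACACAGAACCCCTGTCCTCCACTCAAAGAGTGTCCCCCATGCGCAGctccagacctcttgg
At the read length of 75 bases, 0.8% of the windows of Ighg2b, 0.5% of those of Ighg2c and 0.6% of those of Ighg3 occurred without a mismatch in the transcript of another gene, and none of the windows of Ighg1, Ighm, Ighd or Igha did.

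IgM and IgA are the classes that bind J chain, through a tail at the end of the secreted heavy chain. The coding tail that only the secreted form holds is shown in capitals, after the 15 bases that come before it in the same exon. It lies at chr12:113420870-113420928 for Ighm and at chr12:113258771-113258829 for Igha (GRCm38, minus strand).
Ighm: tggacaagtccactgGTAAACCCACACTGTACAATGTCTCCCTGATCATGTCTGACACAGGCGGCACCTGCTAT
Igha: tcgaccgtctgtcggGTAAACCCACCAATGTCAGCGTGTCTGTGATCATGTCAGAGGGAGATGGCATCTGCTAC
The deposited values count reads per gene, so secreted and membrane transcripts of these genes could not be separated.

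Among the light chain genes, Iglc2 and Iglc3 are the closest in sequence, with 96.2% of aligned coding bases shared. Iglc1 and Iglc2 share 73.4%. One coding stretch of 75 bases, the length of a read, shows this. Among stretches without gaps in the 3 genes, it was chosen as the one where Iglc2 differs most from Iglc1, so it is not typical. In capitals are the positions at which the 3 genes are not all the same. It lies at chr16:19061761-19061835 for Iglc1, chr16:19198545-19198619 for Iglc2 and chr16:19065374-19065448 for Iglc3 (GRCm38, minus strand).
Iglc1: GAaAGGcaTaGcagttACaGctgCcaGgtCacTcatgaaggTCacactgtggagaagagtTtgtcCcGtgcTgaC
Iglc2: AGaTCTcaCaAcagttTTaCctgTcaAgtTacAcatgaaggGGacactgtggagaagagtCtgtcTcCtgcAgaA
Iglc3: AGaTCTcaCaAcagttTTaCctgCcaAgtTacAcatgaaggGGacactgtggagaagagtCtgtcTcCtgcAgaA
Iglc2 differed from Iglc3 at 1 of these 75 bases and from Iglc1 at 21. Over the whole gene, 0.9% of the windows of Iglc2 occurred without a mismatch in Iglc3, and none of the windows of Igkc or Iglc1 did so in another gene. In addition, 38 bases of Iglc2, or 6.2% of its exons, overlap the joining segment Iglj2 on the same strand.

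Reads counted in genes ran from 16616909 to 32933164 per library, the most in vehicle animal 2, and 26.6% to 36.6% of the reads of a library were assigned to no gene. Over 14736 genes tested with edgeR's quasi-likelihood test and Benjamini-Hochberg adjustment, 287 had an adjusted p under 0.05. The median log2 fold change of all 14736 genes was -0.045. The summed level of 8 neuron markers stood apart in vehicle animals 1 and 3, at 1059.5 and 6448 CPM (counts scaled to library size), against 30.3 to 112 CPM in the other 6 libraries. Fold changes of the constant region genes are given with and without them.

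The constant region genes were far more abundant in the vehicle infarcts. They took 0.763%, 1.19%, 1.52% and 0.485% of all gene counts in vehicle animals 1 to 4 and 0.206%, 0.0315%, 0.0475% and 0.0844% in HPBCD animals 1 to 4. The means were 0.989% ± 0.456 (SD, n = 4) and 0.0922% ± 0.0788 (SD, n = 4). The groups did not overlap, and the lowest vehicle library was 2.36 times the highest HPBCD library. The mean log2 share differed by -3.66 (HPBCD minus vehicle), and by -3.41 without vehicle animals 1 and 3. No test is attached to this sum, because the genes were chosen with results of these libraries known. Wilson 95% intervals were narrow, from 0.481% to 0.488% for vehicle animal 4 and from 0.204% to 0.208% for HPBCD animal 1, and they cover counting error only. In vehicle animal 3, Ighm was the gene with the 4th highest count of all, and Igkc was 13th to 36th in the 4 vehicle libraries and 173rd to 1770th in the HPBCD libraries. In tissue libraries of this kind, fewer antibody-producing cells and less antibody RNA per cell cannot be told apart.

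**Figure D1:**
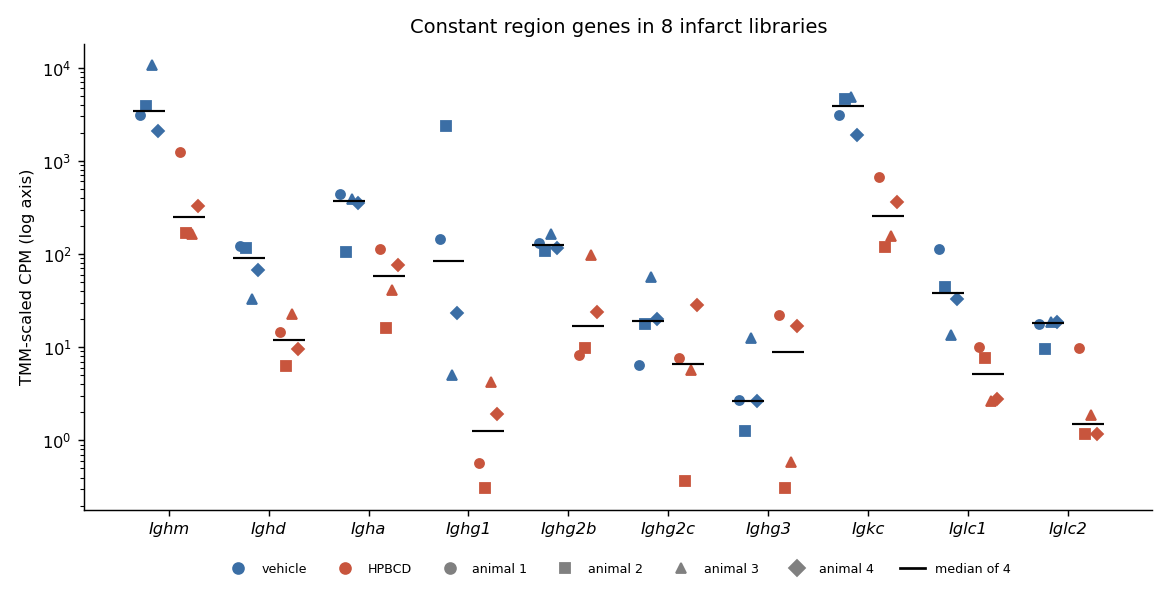
Level of each constant region gene in each library, in CPM scaled by TMM on a log axis, with vehicle in blue and HPBCD in red, marker shapes for the animal numbers and a black bar at the median of 4. Ighm, Ighd, Ighg1, Ighg2b, Igkc and Iglc1 show no overlap between groups, whereas Igha, Ighg2c, Ighg3 and Iglc2 do.

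Of the 10 genes, 9 had lower fitted levels in HPBCD and 1, Ighg3, had a higher one, with a median log2 fold change of -2.53 over the 10 genes against -0.045 over all genes tested. With edgeR, 2 of the 10, Igkc and Ighd, fell past the adjusted threshold of 0.05 and none rose, where 0.774% of all genes tested were called lower and 1.17% higher. Both calls lay close to the threshold. With 1 animal left out, Igkc stayed under it without vehicle animal 2 or 3 and Ighd without vehicle animal 3, and each was lost without any of the other animals. Of all genes tested, 0 passed without vehicle animal 1 or 4 or HPBCD animal 2 or 3. Without HPBCD animal 1, 4 of 15048 genes passed, and without HPBCD animal 4, 353 of 15043. Without vehicle animal 2, 538 of 14962 genes passed, and without vehicle animal 3, 629 of 14906. In these fits the log2 fold change stayed between -4.10 and -3.20 for Igkc and between -3.05 and -2.43 for Ighd. Over the 17 alternatives, the adjusted p ran from 6.07e-08 to 0.172 for Igkc and from 1.15e-05 to 0.175 for Ighd. Without vehicle animals 1 and 3, edgeR called 0 of the 10 and 202 of all 15066 genes tested. Of the 10, 5 then had an unadjusted p under 0.05, against 3236 of all genes tested. At an unadjusted p under 0.05, 8 of the 10 genes were lower, against 16.0% of all genes. The groups did not overlap for 6 of the 10, all lower in HPBCD, against 8.01% of all genes. DESeq2 called 7 of the 10 lower, with 11.1% of the genes it tested called lower, and limma-voom with quality weights also called 7, with 11.1% of 14736 genes called lower. DESeq2 gave Ighg1 no adjusted p, and neither tool called Ighg1, Ighg2c or Ighg3.

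Ighm, the gene of the class made first in an antibody response, had the highest count of the heavy chain genes in every library. Its level was 3082, 3827, 10614 and 2090 CPM in vehicle animals 1 to 4 and 1244, 170, 163 and 325 CPM in HPBCD animals 1 to 4. All vehicle libraries were above all HPBCD libraries, and the spread within each group was wide, with vehicle animal 3 and HPBCD animal 1 at the top. The log2 fold change was -3.37 ± 0.87 (SE), with an edgeR adjusted p of 0.0722, which did not pass. Without vehicle animals 1 and 3 it was -2.62, with an adjusted p of 0.220.

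Ighd, which marks naive B lymphocytes that make IgD beside IgM, was at 123, 115, 32.8 and 68.0 CPM in vehicle animals 1 to 4 and at 14.6, 6.36, 22.5 and 9.53 CPM in the HPBCD animals. Every vehicle library was above every HPBCD library. Its log2 fold change in edgeR was -2.68 with an SE of 0.52, and the adjusted p was 0.0499. The same gene had an adjusted p of 0.0504 without vehicle animals 1 and 3, where the log2 fold change was -2.77. The order of animals was not that of Ighm. Vehicle animal 3 had the highest Ighm and the lowest Ighd of its group, so its ratio of Ighm to Ighd per kilobase (kb) of exon was 326, against 25.3, 33.5 and 31.0 in vehicle animals 1, 2 and 4. In HPBCD animals the ratio was 85.7, 26.9, 7.29 and 34.4, and the groups overlapped.

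Igha, the gene of the class that dominates mucosal secretions, was at 445, 105, 388 and 352 CPM in the vehicle animals and at 115, 16.3, 40.9 and 76.4 CPM in the HPBCD animals. The groups overlapped only because vehicle animal 2, at 105 CPM, was below HPBCD animal 1, at 115 CPM. With edgeR the log2 fold change was -2.38 (SE 0.66, adjusted p of 0.0828), and it was -1.87 (adjusted p of 0.296) without vehicle animals 1 and 3. With any 1 animal left out, Igha stayed between -2.85 and -2.05, with an adjusted p from 0.0528, without vehicle animal 2, to 0.195.

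Ighg1 showed the largest fitted change and the largest spread. Its vehicle levels were 146, 2339.9, 5.01 and 23.5 CPM, a range of 467 times from lowest to highest, and its HPBCD levels were 0.573, 0.306, 4.23 and 1.94 CPM. Every vehicle library was above every HPBCD library, but vehicle animal 3, at 5.01 CPM, was close to HPBCD animal 3, at 4.23 CPM. In HPBCD animals 1 and 2 these levels rested on 10 and 5 counts. With edgeR the log2 fold change was -8.46 (SE 2.27, adjusted p of 0.0793), and without vehicle animal 2 it was -5.01 (adjusted p = 0.0659). It was -9.34 (adjusted p of 0.120) without vehicle animals 1 and 3, and with any 1 animal left out it ran from -9.36 to -5.01. The same animal was alone in expressing Ighe, the IgE gene, with 1565 counts or 44.8 CPM, whereas the other 7 libraries held 0 to 2 counts, no more than the 3 counts taken here as the floor. Its Igha, Ighg2b, Ighg3 and Iglc2 were the lowest of the vehicle group.

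Ighg2b was the most even of the genes among vehicle animals, at 132, 109, 165 and 116 CPM. In the HPBCD animals it was at 8.26, 9.90, 96.9 and 23.8 CPM, so HPBCD animal 3 was close to the vehicle range without reaching it. With edgeR the log2 fold change was -1.91 (SE 0.78, adjusted p of 0.164). It was -1.67 (adjusted p of 0.435) without vehicle animals 1 and 3. With any 1 animal left out it ran from -3.22, without HPBCD animal 3, to -1.58, without HPBCD animal 1, and Ighg2b passed in none of these fits (adjusted p from 0.0899 to 0.307).

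The groups overlapped widely for the other IgG genes. Ighg2c was at 6.38, 18.0, 56.0 and 20.2 CPM in the vehicle animals and at 7.68, 0.367, 5.68 and 28.3 CPM in the HPBCD animals, a log2 fold change of -1.26 with an SE of 1.08 (adjusted p of 0.498 with edgeR) and of -0.84 (adjusted p of 0.740) without vehicle animals 1 and 3. Ighg3, a subclass associated with T cell-independent responses, was at 2.71, 1.26, 12.4 and 2.63 CPM in the vehicle animals and at 22.0, 0.306, 0.589 and 17.01 CPM in the HPBCD animals. HPBCD animals 1 and 4 were thus above every vehicle animal and HPBCD animals 2 and 3 below every vehicle animal. With edgeR the log2 fold change was 1.08 (SE 1.31, adjusted p of 0.643). It was 2.40 (adjusted p of 0.520) without vehicle animals 1 and 3 and -0.05 with limma-voom, so no direction can be given for Ighg3.

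Igkc encodes the constant region of the kappa light chain, which most mouse antibodies carry. It lies at chr6:70726435-70726966 on the plus strand of GRCm38. Its level was 3085, 4649, 4879 and 1890.0 CPM in vehicle animals 1 to 4 and 663, 119, 156 and 358 CPM in HPBCD animals 1 to 4. The lowest vehicle library was well above the highest HPBCD library, and the vehicle spread, 2.58 times from lowest to highest, was smaller than that of Ighm, at 5.08 times. Its log2 fold change in edgeR was -3.48 with an SE of 0.61, and the adjusted p was 0.0483. Without vehicle animals 1 and 3 the log2 fold change was -3.32 with an adjusted p of 0.120.

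The lambda genes were much lower. Iglc1 was at 114, 44.4, 13.7 and 32.8 CPM in the vehicle animals and at 10.1, 7.58, 2.68 and 2.77 CPM in the HPBCD animals, without overlap. With edgeR the log2 fold change was -3.15 (SE 0.76, adjusted p of 0.0677), and it was -2.73 (adjusted p of 0.0673) without vehicle animals 1 and 3. Iglc2 was at 17.7, 9.57, 18.5 and 18.5 CPM in the vehicle animals and at 9.92, 1.16, 1.87 and 1.16 CPM in the HPBCD animals. Only HPBCD animal 1 reached the vehicle range of Iglc2, for which edgeR gave a log2 fold change of -2.18 (SE 0.74, adjusted p of 0.110), and without that animal the log2 fold change was -3.51 with an adjusted p of 0.0410. It was -1.97 (adjusted p of 0.302) without vehicle animals 1 and 3. No other fit with 1 animal left out called Iglc2, and their adjusted p reached 0.247. Iglc3, the closest relative of Iglc2, had a mean of 10.9 ± 5.99 CPM (SD, n = 4) in vehicle and 2.40 ± 1.80 CPM (SD, n = 4) in HPBCD, with an edgeR adjusted p of 0.0876. Iglc4 had 0 counts in all 8 libraries, where a floor of 3 counts corresponds to 0.0859 to 0.183 CPM per library.

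**Figure D2:**
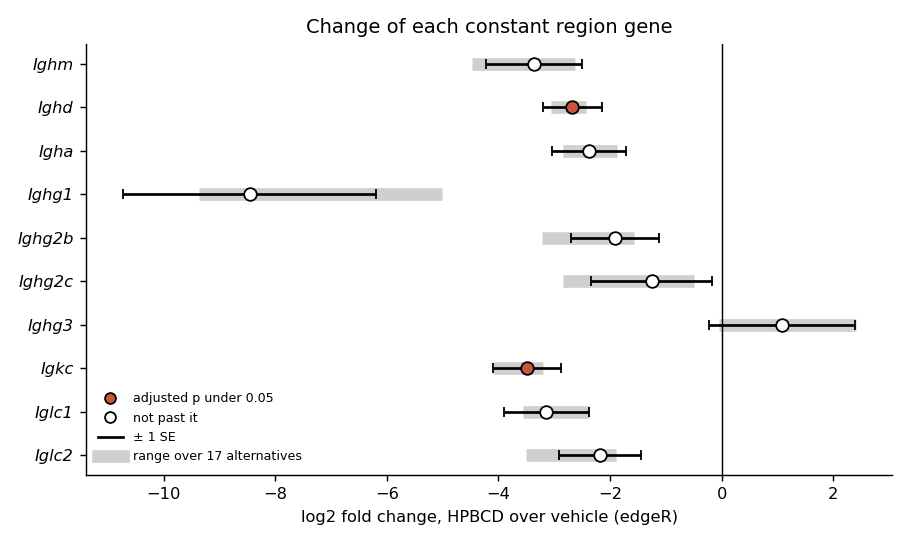
Log2 fold change of HPBCD over vehicle for the 10 constant region genes from edgeR (4 libraries per group), with bars of 1 SE, filled circles where the adjusted p was under 0.05 and grey bands for the range over 17 alternative settings. Igkc and Ighd are filled, Ighg1 has the widest SE at 2.27, and the band of Ighg3 crosses 0.

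Levels can be ordered between genes only per length, and the order can depend on the length taken. Merged exons include those of the membrane form. They exceed the secreted form far more for Igha (2668 against 1100 bases) than for Ighm (1886 against 1493 bases). Per kb of merged exons, the vehicle order was Igkc (mean 6815 CPM per kb), Ighm (2599.9), Ighg1 (243), Igha (121), Iglc1 (113), Ighg2b (48.8), Ighd (44.6), Iglc2 (26.3), Ighg2c (18.9) and Ighg3 (1.90). In HPBCD it was Igkc (609), Ighm (252), Igha (23.2), Ighg2b (12.97), Iglc1 (12.8), Ighg2c (7.92), Ighd (6.97), Iglc2 (5.77), Ighg3 (3.97) and Ighg1 (0.680). Igkc was above Ighm in all 8 libraries, and Ighm was above the next gene in all 8 without overlap of their ranges. The ranges of Igkc and Ighm overlapped within each group, as did those of all later neighbours. The high mean of Ighg1 in vehicle came from animal 2, since Ighg1 was above Igha in 1 of 4 vehicle libraries. From vehicle to HPBCD, Ighg1 moved from place 3 to the last place.

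Whether the mix of classes differed, apart from the total, was addressed by the share of each class in the summed heavy chain level per kb. IgM formed 82.7%, 65.7%, 95.4% and 82.4% of the heavy chain level in vehicle animals 1 to 4 and 90.6%, 86.8%, 55.4% and 70.7% in HPBCD animals 1 to 4. It was the main class in every library. With the length of the secreted form, chosen after seeing the data, IgM was still the main class but lower, at 50.3% in vehicle animal 2. It was then at 40.3% in HPBCD animal 3, and IgA reached 19.1% in HPBCD animal 4. Per kb of merged exons, the lowest vehicle share of IgM, in animal 2, went with IgG at 31.0%. The lowest HPBCD share of IgM, in animal 3, went with IgG at 27.2%. The means were 81.5% ± 12.1 (SD, n = 4) in vehicle and 75.9% ± 16.1 (SD, n = 4) in HPBCD, a difference of -5.67 percentage points that was within the spread between animals (two-sided exact permutation test, p = 0.60, adjusted p = 0.75).

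IgA formed 8.43%, 1.28%, 2.47% and 9.82% of the heavy chain level in vehicle and 5.89%, 5.89%, 9.83% and 11.8% in HPBCD, with 1 HPBCD animal slightly above and 1 well above the vehicle range. IgD formed 3.27%, 1.96%, 0.292% and 2.66% in vehicle and 1.06%, 3.23%, 7.60% and 2.06% in HPBCD. IgG formed 5.64%, 31.0%, 1.88% and 5.11% in vehicle and 2.45%, 4.07%, 27.2% and 15.5% in HPBCD. None of these shares differed beyond the spread between animals, with exact permutation p of 0.314 for IgA, 0.457 for IgD and 0.943 for IgG. Wilson 95% intervals of the raw count shares were at most 2.52 percentage points wide for IgM and 2.32 for IgG, narrower than the range between libraries of either group.

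Within IgG the leading subclass changed from animal to animal. Ighg1 led in vehicle animals 1 and 2, with 50.5% and 94.3% of the IgG level, and Ighg2b led in vehicle animals 3 and 4, with 55.7% and 63.1%. Ighg2b also led in HPBCD animals 2 and 3, with 87.8% and 85.5%, while Ighg3 led in HPBCD animal 1 with 49.0% and Ighg2c in HPBCD animal 4 with 56.5%. Ighg1 formed 1.24%, 2.80%, 3.85% and 1.98% of IgG in the HPBCD animals, and in vehicle animal 3 it formed 1.74%, inside that range. The mean share of Ighg1 was 39.9% ± 41.8 (SD, n = 4) in vehicle and 2.47% ± 1.12 (SD, n = 4) in HPBCD (exact permutation p = 0.114, adjusted p = 0.75).

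The other subclass shares also overlapped between groups. The exact permutation p was 0.60 for Ighg2b, 0.486 for Ighg2c and 0.229 for Ighg3. The subclass shares of HPBCD animal 2 rested on 178 IgG counts in all, and its raw count share of Ighg2b had a Wilson 95% interval from 85.9% to 94.4%. In vehicle animal 2, 86181 IgG counts gave an interval from 94.66% to 94.95% for the raw count share of Ighg1. In HPBCD animal 1 the Ighg3 share of raw counts was 57.1%, with an interval from 53.3% to 60.8%. The annotated Ighg2c exons are shorter, 1326 bases against 2512 to 2678 for the other IgG genes, because the annotated membrane form is shorter, so the per kb share of Ighg2c depends on this annotation.

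**Figure D3:**
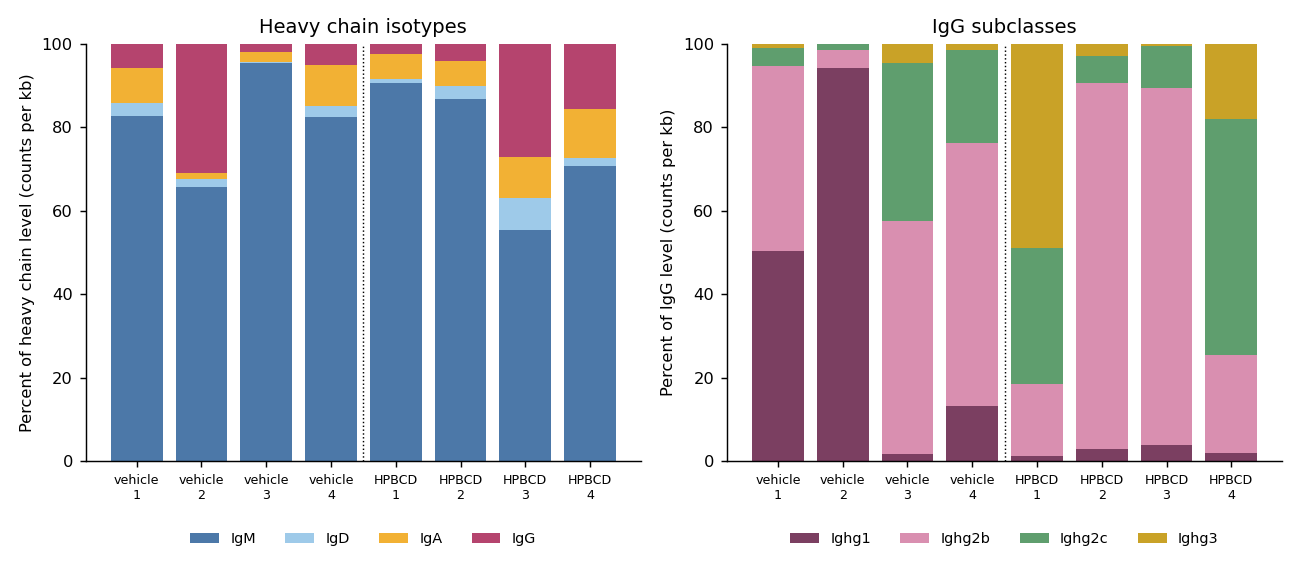
Share of each heavy chain class in the summed heavy chain level (left) and of each subclass in the IgG level (right), in percent of counts per kb of merged exons, for each of the 8 libraries, vehicle to the left of the dotted line. IgM fills most of every bar on the left, and on the right Ighg1 fills 94.3% of the bar of vehicle animal 2 but at most 3.85% of any HPBCD bar.

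Kappa was the main light chain in every library. It formed 95.4%, 98.7%, 99.3% and 97.2% of the light chain level in vehicle animals 1 to 4 and 97.0%, 92.3%, 97.0% and 98.8% in HPBCD animals 1 to 4 (exact permutation p = 0.429, adjusted p = 0.75). The share of Iglc1 in the 2 lambda genes ran from 49.9% to 89.7% in vehicle and from 58.0% to 89.8% in HPBCD (exact permutation p = 0.914, adjusted p = 0.943). In HPBCD animal 4, with 71 lambda counts, the raw count share had a Wilson 95% interval from 59.0% to 79.8%. Over all 10 shares compared, heavy and light together, none had an exact p under 0.05. The smallest exact p this design allows is 0.0286. With adjustment over 10 shares, a share at that p on its own would not pass 0.05, so the adjusted p could not have called a share that differed alone. A p that misses the threshold does not show that the mix was the same.

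Ratios between the chains and to Jchain are given per library, without a test. The heavy chain level per kb was 0.325, 0.349, 0.639 and 0.368 of the light chain level in vehicle and 0.567, 0.429, 0.515 and 0.358 in HPBCD. Vehicle animal 3 was the highest of its group, and the groups overlapped. Ighm was at 3.07, 2.34, 7.11 and 3.26 times the Jchain level per kb in vehicle and at 7.27, 5.53, 4.37 and 5.51 times in HPBCD. Igha was at 0.313, 0.0455, 0.184 and 0.388 times Jchain in vehicle and at 0.473, 0.375, 0.775 and 0.916 times in HPBCD, so 3 of 4 HPBCD animals were above all vehicle animals. The ratio of Igkc to Jchain, which was added after the values were seen, was 10.9, 10.1, 11.6 and 10.5 in vehicle and 13.7, 13.7, 14.9 and 21.5 in HPBCD, without overlap.

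Of 12 plasma cell genes, 3 fell past the threshold and none rose, with a median log2 fold change of -1.55, and DESeq2 and limma-voom each called 7 lower. For this and the later lists, the shares over all genes stand beside the counts. EdgeR called 0.774% lower and 1.17% higher, and DESeq2 and limma-voom each called 11.1% lower. DESeq2 called 1009 of 17041 genes higher and limma-voom 1612 of 14736. An unadjusted edgeR p under 0.05 was found for 4092 of 14736 genes. Jchain had a mean of 1592 ± 608 CPM (SD, n = 4) in vehicle and 99.4 ± 87.4 CPM in HPBCD, and edgeR gave a log2 fold change of -4.00 with an adjusted p of 0.0462. Bhlha15, a transcription factor of secretory cells, and Pou2af1, a B cell coactivator, also fell, by 3.57 and 1.57 on the log2 scale with an adjusted p of 0.0483 for each. Xbp1 and Txndc5, which serve protein folding and secretion in many cell types, had log2 fold changes of -0.28 and -0.07 and did not pass. The summed plasma cell level ran from 1633 to 3204 CPM in vehicle and from 692 to 996 CPM in HPBCD.

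Of 10 B lymphocyte genes, 3 fell and none rose, with a median log2 fold change of -1.92, whereas DESeq2 and limma-voom each called 8 lower and 1 higher. Cd79a and Cd79b, the signalling chains of the B cell receptor, fell by 1.89 and 1.88 in log2 units (adjusted p of 0.0485 and 0.0483 with edgeR), and Fcer2a, the low-affinity IgE receptor of naive B cells, fell by 2.38 (adjusted p = 0.0483). Ms4a1 (CD20), the most abundant on the list, was at 191 ± 96.7 CPM (SD, n = 4) in vehicle and 49.6 ± 21.4 CPM in HPBCD (adjusted p = 0.0797). Cd22 and Blnk had positive log2 fold changes of 0.56 and 0.24 and did not pass. The summed B lymphocyte level ran from 247 to 730 CPM in vehicle and from 196 to 335 CPM in HPBCD. Vehicle animal 3 was at 247 CPM, the lowest of its group and inside the HPBCD range, while its constant region share was the highest of all. These lists, like the constant region genes, were drawn up with earlier results known and are no independent support.

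**Figure D4:**
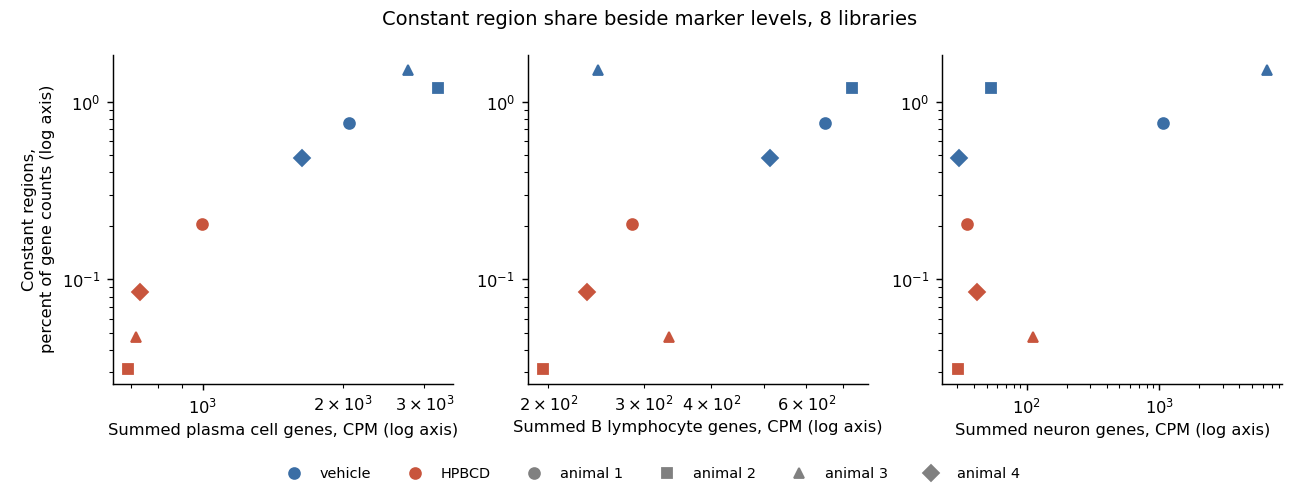
Constant region share of gene counts (percent, log axis) against the summed level of plasma cell, B lymphocyte and neuron genes (CPM, log axes) in the 8 libraries, vehicle in blue and HPBCD in red. Vehicle animal 3 has the highest share at 1.52% with only 247 CPM of B lymphocyte genes, and the neuron level is high in vehicle animals 1 and 3 alone.

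Few of the genes for switching and its direction passed the test. Of 11 tested genes of class switch recombination, none was called by edgeR or DESeq2, and 1 had an unadjusted p under 0.05. Limma-voom called 1 lower and 1 higher. Rif1 and Trp53bp1, which protect broken DNA ends during switching, were among the most abundant, with log2 fold changes of -0.35 and -0.28. These genes also serve DNA repair in other cells. Of 14 tested genes for signals that direct isotype, 2 fell and none rose with edgeR. Both are receptors of B cell survival factors: Tnfrsf13c (BAFF receptor) changed by -2.31 on the log2 scale (edgeR adjusted p of 0.0472), and Tnfrsf13b (TACI) changed by -1.22 (adjusted p of 0.0483). Tgfbr2, Tgfbr1 and Ifngr1 were the most abundant, with log2 fold changes of 0.56, 0.35 and 0.10 and no edgeR call. Tgfb1 was at 106 ± 18.6 CPM (SD, n = 4) in vehicle and 157 ± 18.5 CPM in HPBCD. Its log2 fold change of 0.56 did not pass (edgeR adjusted p of 0.0848). Of the 14 fold changes, 6 were negative and 8 positive. For this list DESeq2 called 2 lower and 1 higher, and limma-voom 3 lower and 1 higher. Il4 was at 6.30 CPM in vehicle animal 2, the library with high Ighg1 and Ighe, within the 5.46 to 13.2 CPM of all libraries. The part of Il4 or Tgfb1 in the levels of any isotype was not tested.

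Receptors that bind antibody moved in both directions. Of 8 tested, edgeR called 1 lower and 1 higher, DESeq2 1 lower and 2 higher, and limma-voom 1 lower and 1 higher. Fcmr, the IgM receptor of B lymphocytes, fell by 2.18 in log2 units (adjusted p of 0.0483 with edgeR), from 28.0 ± 11.4 to 6.16 ± 2.32 CPM (SD, n = 4 each). Fcgrt, the neonatal Fc receptor that carries IgG across cells and spares it from breakdown, rose by 0.75 (adjusted p = 0.0483), from 86.3 ± 10.8 to 145 ± 9.81 CPM. Fcgr2b and Fcer1g, the inhibitory IgG receptor and the signalling chain shared by activating Fc receptors, were the most abundant, with log2 fold changes of 0.50 and 0.68 that did not pass. Pigr, which carries dimeric IgA and IgM across epithelia, had at most 4 counts in any library.

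None of 7 T lymphocyte genes was called by edgeR, and 1 had an unadjusted p under 0.05, against 4092 of all 14736 genes. DESeq2 and limma-voom each called 1 higher, against 1009 of 17041 and 1612 of 14736 genes. The summed T lymphocyte level was 87.0 to 121 CPM in vehicle and 77.99 to 190 CPM in HPBCD. The most abundant, Trac, Cd3e and Cd8a, had log2 fold changes of 0.29, 0.13 and 0.51. None of 5 erythroid genes was called by edgeR or DESeq2 or had an unadjusted p under 0.05, limma-voom called 1 higher, and their sum was 14.1 to 33.8 CPM in vehicle and 31.9 to 35.6 CPM in HPBCD (Hbb-bs, Hba-a1 and Alas2 had log2 fold changes of 0.38, 0.62 and 0.55). Of 5 fibroblast and meninges genes, 2 rose, Col1a1 by 1.61 and Col1a2 by 1.46 (edgeR adjusted p = 0.0483 and 0.0462), Dcn had a log2 fold change of 0.80, and their sum was 2147 to 4819.6 CPM in vehicle and 6924 to 7739.9 CPM in HPBCD. Of 6 foamy macrophage genes, 1 rose, Gpnmb by 1.38 (adjusted p = 0.0483), while Spp1 and Lpl had log2 fold changes of 0.09 and -0.21. Their sum was 5645 to 10551 CPM in vehicle and 13003 to 20103 CPM in HPBCD. DESeq2 and limma-voom each called 3 of the foamy macrophage genes and 3 of the fibroblast and meninges genes higher. None of 7 tested neuron genes was called by edgeR or limma-voom. All 7 had an unadjusted edgeR p under 0.05, against 4092 of all 14736 genes. DESeq2 called 6 lower, against 11.1% of the genes it tested. Snap25, Syt1 and Eno2 were highest in vehicle animals 1 and 3 (log2 fold changes -6.48, -5.85 and -2.72). The part of these cell types in the levels of the constant region genes was not tested.

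The genes most like 4 of the constant region genes over the 8 libraries, among 13883 non-immunoglobulin genes that averaged 1 CPM or more, are given as a description. The libraries share the group difference and their own composition, so r is given with the r of deviations from group means. In each pair of values, the Pearson r comes before the r within groups. Igkc was most like Jchain (0.994 and 0.969), Chtop (0.985 and 0.919) and Crem (0.976 and 0.917). Ighm was most like Bhlha15 (0.976 and 0.925), Upf3b (0.972 and 0.897) and Jchain (0.970 and 0.911). Igha was most like Mtx3 (0.987 and 0.965), Osgepl1 (0.986 and 0.961) and Zik1 (0.973 and 0.957). Ighg2b was most like Ptgs1 (0.982 and 0.959), Car2 (0.975 and 0.932) and Pex5l (0.971 and 0.919). The genes given for Igha and Ighg2b are not on the plasma cell or B lymphocyte lists.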

How the data were processed

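The values are deposited counts of reads per Ensembl gene (HTSeq htseq-count), which the authors made from poly(A)-selected stranded libraries read as 75-base pairs, trimmed with Trimmomatic 0.32 and aligned with STAR 2.5.2b to GRCm38. The strand option and the annotation release used for counting are not given in the sources used here. The lines for reads in no gene were left out of library sizes, and 0.0484% of counts were in identifiers without a symbol. Symbols, exons and sequences came from GENCODE for GRCm38. From the counts, edgeR 4.0.16 (TMM, filterByExpr, robust quasi-likelihood test, Benjamini-Hochberg adjustment over all genes tested, threshold 0.05) compared 4 HPBCD with 4 vehicle libraries. DESeq2 1.42.0 and limma 3.58.1 (voom) were alternatives. The code was tested on simulated data. CPM are TMM-scaled, with a prior count of 2 on the log2 scale. Shares used counts per kb of merged exons, an exact two-sided permutation test over 70 assignments and adjustment over 10 shares. Wilson 95% intervals apply to raw count shares and cover counting error only, and reads are not independent molecules. The constant region genes and all lists were chosen with earlier results of these data known. Named genes of each list are the 3 most abundant tested and every called gene. Beyond these, Pigr, Il4 and Tgfb1 were named for their role after their values were seen. Some genes of the lists are not reported here. Same-numbered animals were not treated as pairs.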

Additional observations from a re-analysis of the deposited data

Results flagged for a closer look

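In 52 groups of 4 values searched for a sample far from the other 3, 6 stood apart by Dixon's criterion, where chance gives about 1 in 20, or 2.6. In vehicle animal 2, log2 CPM of Igha was 6.72 against 8.46 to 8.80 in the other vehicle animals, log2 CPM of Iglc2 was 3.27 against 4.16 to 4.22, and the IgG share of the heavy chain level was 31.0% against 1.88% to 5.64%. This is the animal with the high Ighg1 and the only one with more than 3 counts of Ighe. In vehicle animal 3, the ratio of Ighm to Ighd was 326 against 25.3 to 33.5, and the ratio of heavy to light chain level was 0.639 against 0.325 to 0.368. In HPBCD animal 4, the ratio of Igkc to Jchain was 21.5 against 13.7 to 14.9 in the other HPBCD animals.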

How the results depend on the processing

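Counts limit the lambda and IgG subclass shares, where Wilson 95% intervals were up to 20.8 percentage points wide for Iglc1 within lambda and 8.49 for Ighg2b within IgG. Of the 10 constant region genes, edgeR called 2 lower. DESeq2 and limma-voom called 7 each. With RLE scaling factors in place of TMM, the same 2 were called, among 300 of 14736 genes. Scaling without immunoglobulin genes called 1, among 254 of 14736 genes, and no filter on low counts called 1, among 296 of 26720 genes. Of the 10, 0 were called without the robust option, with library totals in place of TMM, or without vehicle animals 1 and 3. Leaving out 1 animal gave 0 to 2: 0 without vehicle animal 1 or 4 or HPBCD animal 2, 3 or 4, and 1 (Iglc2) without HPBCD animal 1. At an unadjusted p under 0.05, 5 to 9 of the 10 passed under each alternative, against 2922 to 5666 of all genes tested. The 9 were with limma-voom (5666 of 14736 genes). The 5 were without vehicle animals 1 and 3 (3236 of 15066 genes). None was called higher under any setting, and 9 of the 10 genes kept their direction under all 17 alternatives. The log2 fold change of Ighg3 was -0.054 with limma-voom. Over all genes the count of 287 became 2899 with DESeq2, 3253 with limma-voom, 98 without the robust option and 11 with library totals, and ran from 0 to 629 when 1 animal was left out, with 0 without vehicle animal 1 or 4 or HPBCD animal 2 or 3 (2922 to 4216 at an unadjusted p under 0.05), 4 without HPBCD animal 1 and 629 without vehicle animal 3. The cause was not tested. Whether animal numbers pair the samples cannot be settled with 4 animals per group and was not tested. Same-numbered deviations correlated at -0.257, 0.244, 0.329 and 0.097, and 2 of the 4 vehicle animals correlated best with their own number. A replicate block gave 0 constant region genes and 9 genes in all. The difference of the log2 constant region share ran from -4.17 to -3.27 with 1 animal left out. No share had an exact permutation p under 0.05 with other lengths, the log2 scale or every annotated gene. After adjustment, a share that differed alone could not have passed there. With 1 animal left out, with vehicle animals 1 and 3 left out and with the block, the smallest possible p was 0.0571, 0.133 and 0.125, so no share could pass and these say nothing about stability of the calls. Without vehicle animals 1 and 3 the difference (HPBCD minus vehicle, percentage points) was 1.80 for IgM and -5.77 for IgG. With the length of the secreted form, an alternative chosen after seeing the data, it was -0.18 for IgG. With 1 animal left out, the difference ran from -10.93 to 1.16 for IgM, from -3.57 to 8.09 for IgG, from -0.85 to 23.8 for Ighg2b and from -0.11 to 17.1 for Ighg2c within IgG, and from -9.68 to 3.59 for Iglc1 within lambda.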
